A study of Mus musculus with 16 samples.

Results

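The Runx transcription factors Runx1, Runx2 and Runx3 and their common partner Cbfb were followed through 4 subsets of mouse splenic dendritic cells (DCs), with and without Etv6. These are 4 of the 24116 genes in the deposited count table, chosen by their symbols, and all 4 passed the filter on low counts that left 13790 genes for testing. Runx2 was selected on its higher level in the CKO libraries of the Dec205 subset, so every comparison of Runx2 that uses a Dec205 library is given as a description without a test. Runx1, Runx3 and Cbfb belong to the set by family and partnership, not by a measured value, although the set was assembled with results of these data known. The study sequenced RNA of sorted cells of the subsets labelled Dec205, pDC, Esamlo and Esamhi, each as WT and as CKO. There were 16 libraries in 8 groups of 2. Per the series' design text, CKO denotes cells deficient in Etv6, which is a transcriptional repressor of the ETS family. No source used here gives the deleting Cre, the deleted exons, the strain or the age. Nor do the labels tell separate animals from repeat preparations within a group, so a p-value reflects library-to-library spread only, and that spread may be technical.

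Dec205 is an endocytic receptor found on cross-presenting DCs (cDC1), pDC is the plasmacytoid DC, the main producer of type I interferon, and Esamlo and Esamhi are classical DCs of the cDC2 lineage with low and high ESAM. Library totals ran from 14434287 to 20709265 counts. The defining markers matched the labelled cDC1 subset: 11 cDC1 genes summed to 7683 to 7762 CPM (counts scaled to library size) in the Dec205 WT libraries, and to at most 1185 CPM in a WT library of any other subset. The 14 pDC markers summed to 16142 to 16277 CPM in pDC WT and to at most 317 CPM in the other WT libraries, and the 9 cDC2 markers to 2172 to 2191 CPM in Esamlo WT, 3165 to 3429 CPM in Esamhi WT, 113 to 148 CPM in Dec205 WT and 1357 to 1484 CPM in pDC WT. Etv6 was lower in CKO with an adjusted p under the threshold in Dec205 alone (log2 fold change -0.75, edgeR adjusted p = 0.000996), and a count over the whole gene checks a partial deletion only weakly. Xist was at 0 to 1.44 CPM in WT and 114 to 355 CPM in CKO libraries, whereas Ddx3y was at 105 to 222 CPM in WT and no higher than 1.95 CPM in CKO, so genotype and sex cannot be told apart in any comparison of CKO with WT. In these sorted populations, fewer cells that express a gene and less RNA per cell cannot be told apart either.

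Runx proteins bind DNA through the Runt domain, and Cbfb, which does not bind DNA itself, raises their affinity and protects them from degradation. The complex can activate or repress a gene, depending on partners such as the Groucho-related Tle co-repressors. In blood cells Runx1 is needed for the first stem cells and for megakaryocytes and lymphocytes. Runx3 silences Cd4 and sustains Cd8 in cytotoxic T cells and takes part in DC responses to TGF-beta. Runx2, the master regulator of bone formation, is also used by pDCs, where it supports exit from the bone marrow.

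The 3 Runx genes carry a shared pair of Runx motifs at their distal promoters, shown here because the family can bind its own promoters and all members are measured together. In GRCm38.p6, Runx1 (Entrez 12394) lies on the minus strand of chromosome 16 from 92601466 to 92826074, Runx2 (Entrez 12393) on the minus strand of chromosome 17 from 44495987 to 44814797, Runx3 (Entrez 12399) on the plus strand of chromosome 4 from 135120645 to 135177990, and Cbfb (Entrez 12400) on the plus strand of chromosome 8 from 105170674 to 105217989. The stretches below are in gene orientation, 5′ to 3′, from RefSeq promoter windows of that assembly, and capitals mark the core motif ACCACA. They lie at chr16:92826025-92826054 for Runx1 and chr17:44814583-44814612 for Runx2, both on the minus strand. These begin at base 21 and base 16 after the transcript start used for the window. For Runx2 that start lies inside the gene span given above, which reaches 44814797. The Runx3 stretch is at chr4:135120503-135120532, on the plus strand before its start.
Runx1: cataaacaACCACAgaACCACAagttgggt
Runx2: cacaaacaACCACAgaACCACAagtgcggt
Runx3: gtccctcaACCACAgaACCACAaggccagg
The stretch shared by all 3 is 18 bases long. It occurred in 4 of 32851 promoter windows of 300 bases (250 before and 50 after the start): those of Runx1, Runx2 and Runx3, and that of Gm16225, whose window overlaps the Runx3 window on the other strand. Single ACCACA motifs on either strand are common, in 16.8% of windows, and 1.81% of windows held at least 2. The Runx2 window held 3. The Cbfb window held 0, as did the second, downstream windows of Runx1 and Runx3. The longer ETS core CCGGAAGT, searched on both strands, was in 3.89% of all windows and in 0 of the 6 windows of these genes. A match describes letters in a window and is not evidence of binding.

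In WT cells each gene had its own distribution over the subsets. Runx2 was concentrated in pDC, Runx3 was highest in both ESAM subsets, Runx1 was highest in Esamlo, and Cbfb was lowest in pDC. Between WT subsets a large share of all genes passed an adjusted p under 0.05 in edgeR's quasi-likelihood test (Benjamini-Hochberg over all tested genes), so a difference here is common: 47.6% of genes for Dec205 against pDC, 34.2% for Dec205 against Esamlo, 37.4% for Dec205 against Esamhi, 45.7% for pDC against Esamlo, 47.1% for pDC against Esamhi and 5.81% for Esamlo against Esamhi.

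**Figure D1:**
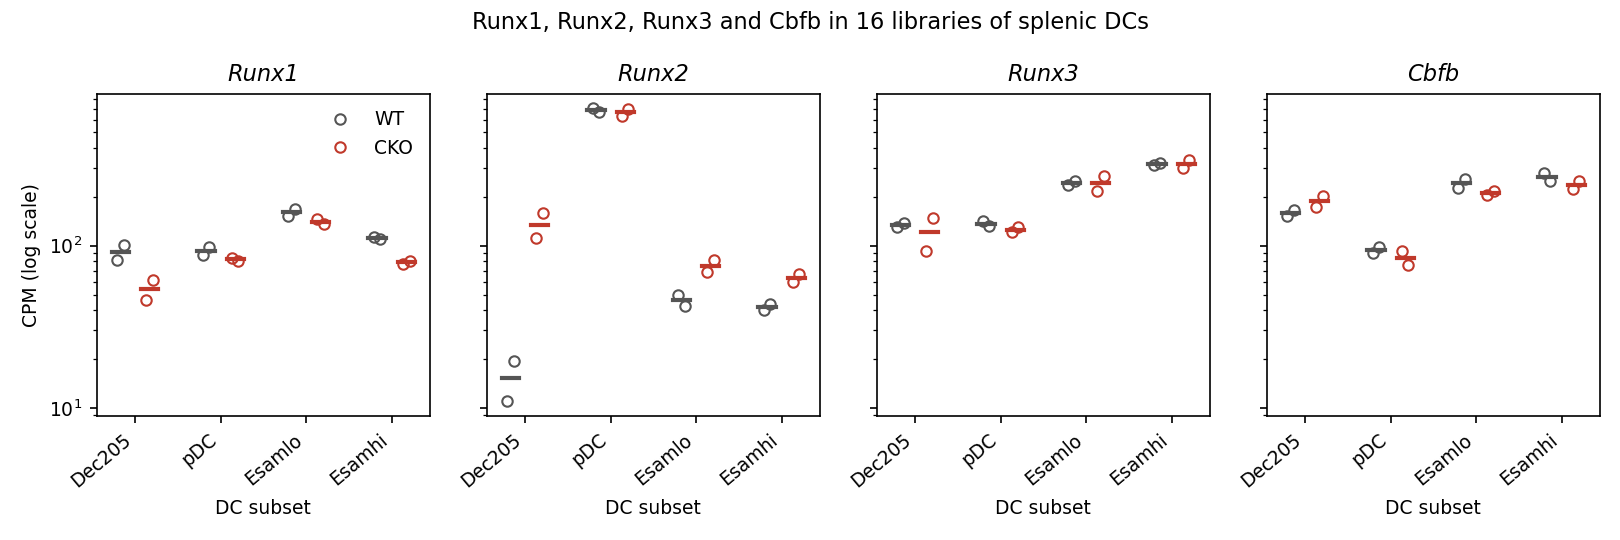
CPM on a log scale (vertical) of each gene in the WT (grey) and CKO (red) libraries of the 4 DC subsets (horizontal); open circles are libraries and bars are means of 2. Runx2 spans 11.0 CPM in a Dec205 WT library to 706 CPM in a pDC WT library, a wider range than the other panels show.

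Runx2 was at 706 and 667 CPM in the pDC WT libraries. It was at 50.0 and 42.3 CPM in Esamlo WT, and at 40.1 and 43.6 CPM in Esamhi WT. Its Dec205 WT libraries held 11.0 and 19.5 CPM, below every other library of the series. The pDC level was 14.9-fold that of Esamlo (log2 difference 3.89, SE 0.23, adjusted p = 2.74e-08) and 16.4-fold that of Esamhi (log2 difference 4.04, SE 0.23, adjusted p = 1.75e-08). Esamlo and Esamhi overlapped, with a log2 difference of 0.14 (95% interval -0.32 to 0.60, adjusted p = 0.812).

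Runx3 was at 313 and 324 CPM in Esamhi WT and 237 and 249 CPM in Esamlo WT. It was at 131 and 137 CPM in Dec205 WT and at 141 and 132 CPM in pDC WT. Every WT library of both ESAM subsets lay above every WT library of the other subsets. Esamhi exceeded Dec205 2.38-fold (adjusted p = 0.000104) and pDC 2.33-fold (adjusted p = 7.36e-05), and Esamlo exceeded them 1.81-fold (adjusted p = 0.00195) and 1.78-fold (adjusted p = 0.00154). The neighbours in this order were not separated by the test: Esamhi against Esamlo had an adjusted p of 0.242 although their libraries did not overlap, and Dec205 against pDC had an adjusted p of 0.929 (95% interval of the log2 difference -0.40 to 0.35).

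Runx1 varied less between WT subsets than the other genes. Its WT libraries held 152 and 168 CPM in Esamlo, 113 and 109 CPM in Esamhi, 87.9 and 98.0 CPM in pDC, and 81.4 and 101 CPM in Dec205. Esamlo was above every WT library of the other subsets, 1.76-fold over Dec205 (adjusted p = 0.000671) and 1.72-fold over pDC (adjusted p = 0.000545). Its 1.44-fold excess over Esamhi passed with an adjusted p of 0.0456, and this call was lost whichever of the 4 libraries was left out (adjusted p 0.0943 to 0.285). Esamhi, pDC and Dec205 were not separated from each other (adjusted p 0.132 to 0.895).

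Cbfb, the partner, was at 282 and 252 CPM in Esamhi WT, 227 and 257 CPM in Esamlo WT, 152 and 166 CPM in Dec205 WT and 90.0 and 98.7 CPM in pDC WT. The ESAM subsets overlapped (adjusted p = 0.624). Esamhi was 1.68-fold above Dec205 (adjusted p = 0.000394), and Dec205 was 1.69-fold above pDC (adjusted p = 0.000259). The pDC was thus the subset with the highest Runx2 and the lowest Cbfb RNA.

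To compare the genes with each other, counts were expressed per kilobase of exon and library size (RPKM), with the exon length of GENCODE M21. On this scale Runx3 made up most of the summed Runx RNA in the 3 classical subsets of WT mice: 74.3% ± 3.09 (SD, n = 2) in Dec205, 72.4% ± 0.349 in Esamlo and 82.0% ± 0.290 in Esamhi. In pDC WT, Runx2 made up 68.9% ± 0.397 and Runx3 24.2% ± 0.362. Runx1 was between 6.87% in pDC and 20.9% in Dec205. The Runx1 share depended on the length used: with the longest transcript as length, Runx1 in Dec205 WT was 29.6% in place of 20.9%, and Runx3 stayed the largest share of the classical WT subsets at 64.5% to 76.3%.

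**Figure D2:**
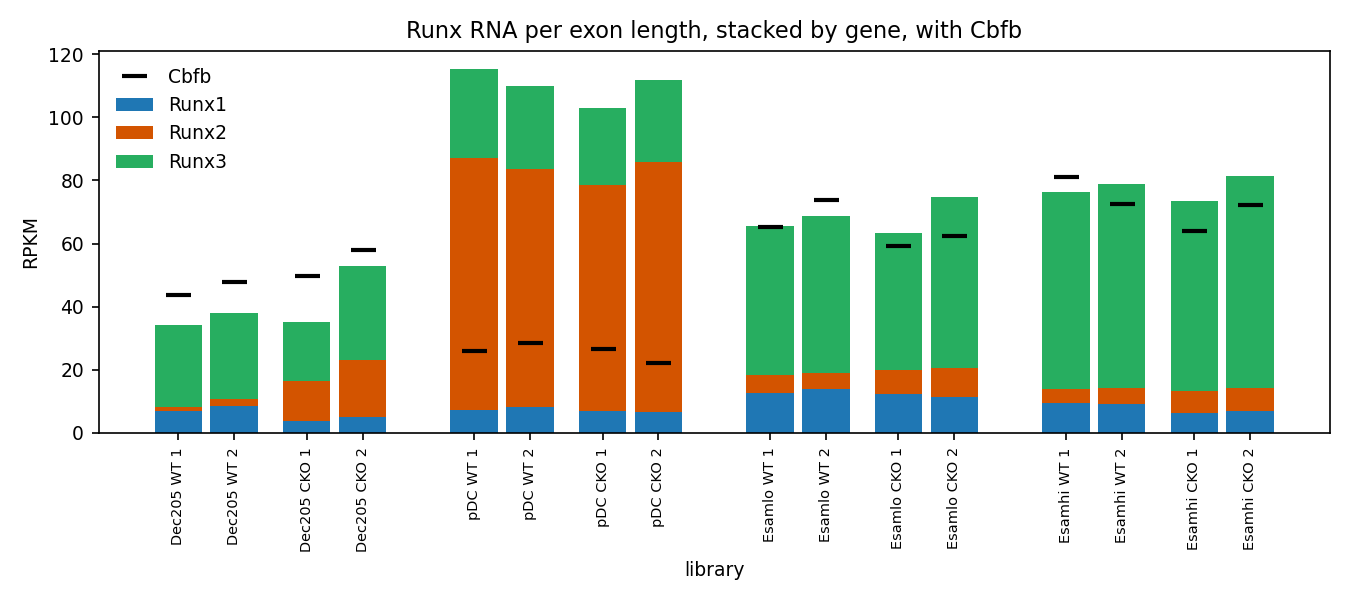
RPKM per exon length (vertical, from 0) of Runx1, Runx2 and Runx3, stacked for each of the 16 libraries (horizontal), with the RPKM of Cbfb as a black dash. With these exon lengths the Runx stack rises far above the Cbfb dash in the 4 pDC libraries. In the Dec205 libraries the dash lies above the stack with the same lengths.

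The ratio of summed Runx RPKM to Cbfb RPKM was 0.789 ± 0.0105 (SD, n = 2) in Dec205 WT, 0.967 ± 0.0555 in Esamlo WT, 1.01 ± 0.102 in Esamhi WT and 4.17 ± 0.413 in pDC WT. Both pDC WT libraries, at 4.46 and 3.88, lay apart from all other WT libraries, whose highest ratio was 1.09. These are RNA ratios and say nothing of the amounts of protein. They also depend on the length used: the longest transcript shortens Runx1 from 12025 to 5861 bases, but Cbfb only from 3480 to 2891. The ratio was not computed with that length. Whether the classical subsets hold more Runx or more Cbfb RNA is therefore not settled here.

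In CKO Dec205 cells Runx2 was high and Runx1 was low, while Runx3 and Cbfb did not pass the test. Runx2 went from 11.0 and 19.5 CPM in WT to 111 and 159 CPM in CKO, 8.80-fold higher, a value that chose the gene and is given without a test. Both CKO libraries lay above every library of Esamlo and Esamhi, and below every pDC library. Runx1 was at 81.4 and 101 CPM in WT and fell to 46.2 and 61.7 CPM in CKO. The groups did not overlap, as for 21.1% of all tested genes with both CKO libraries below both WT libraries, and the fall was 1.69-fold (log2 fold change -0.76, SE 0.14, 95% interval -1.07 to -0.45, edgeR adjusted p = 0.00768). Of the 3 members tested here, 1 was lower and 0 higher, against 3.34% lower and 3.44% higher of all tested genes. Runx1 was no longer called without WT replicate 2 (log2 fold change -0.59, adjusted p = 0.0593) and when the spread was estimated from the 4 Dec205 libraries alone (-0.73, adjusted p = 0.228).

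Runx3 in Dec205 depended on which CKO library was used. WT held 131 and 137 CPM, while CKO replicates 1 and 2 held 93.3 and 149 CPM, on either side of them. The log2 fold change was -0.15 (95% interval -0.52 to 0.23, adjusted p = 0.682). It was -0.52 without CKO replicate 2 (adjusted p = 0.0436) and 0.16 without CKO replicate 1 (adjusted p = 0.559). Cbfb was at 152 and 166 CPM in WT and 173 and 202 CPM in CKO, higher in both CKO libraries, a pattern of 20.1% of all tested genes, with a log2 fold change of 0.24 (95% interval -0.03 to 0.50, adjusted p = 0.278).

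In length-scaled terms the shares of the 3 Runx genes in Dec205 did not overlap between genotypes, while their sum did. Runx2 was 3.65% and 5.80% of the summed Runx RPKM in WT and 35.9% and 34.0% in CKO. Runx3 was 76.5% and 72.2% in WT and 53.2% and 56.3% in CKO, and Runx1 19.8% and 22.0% in WT and 11.0% and 9.70% in CKO. The summed Runx RPKM was 34.1 and 38.0 in WT and 35.0 and 52.9 in CKO, so these groups overlapped. The ratio to Cbfb was 0.782 and 0.797 in WT and 0.706 and 0.911 in CKO, which overlapped as well. With Runx2 left out, the ratio was 0.753 and 0.750 in WT and 0.453 and 0.601 in CKO, without overlap and without a test. The shares rest on the values that chose Runx2 and are descriptions.

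Runx2 in Dec205 was set beside other genes of pDCs. As a percent of the pDC WT mean, Runx2 was at 2.22% in Dec205 WT and 19.7% in Dec205 CKO. The 14 pDC markers had a median of 1.34% in WT and 2.81% in CKO, and 0 of the 14 reached the Runx2 percent in CKO. Runx2 was chosen on its Dec205 CKO level, so its place above the markers was favoured in advance and is a description only. Siglech, a surface receptor of pDCs, was at 1.75 and 1.01 CPM in WT and 4.46 and 2.66 CPM in CKO, or 0.0642% of its pDC level in CKO. The pDC regulator Tcf4 was at 42.4 and 30.1 CPM in WT and 88.3 and 62.1 CPM in CKO, 5.12% of its pDC level. The highest marker was Blnk, an adaptor of B cells and pDCs, at 12.5%.

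**Figure D3:**
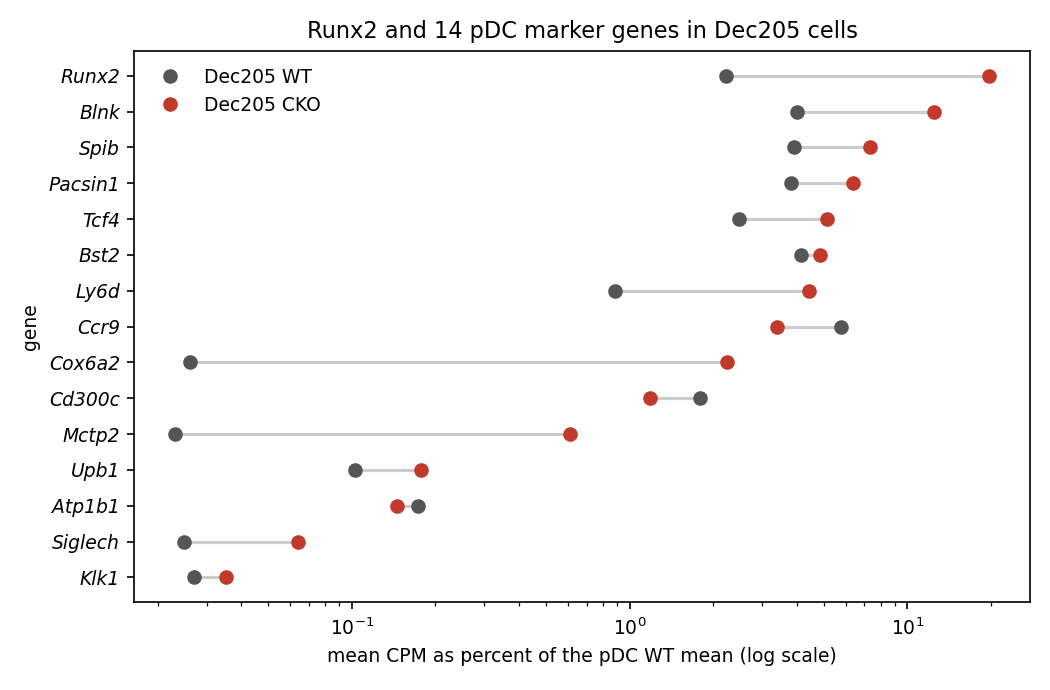
Mean CPM of Runx2 and the 14 pDC markers in Dec205 WT (grey) and Dec205 CKO (red) as a percent of the pDC WT mean, on a log scale (horizontal), by gene (vertical). Runx2, which was chosen on its rise in these libraries, ends at 19.7%, to the right of all 14 markers.

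Summed markers of some other cells differed between genotypes in the same Dec205 libraries. Of all tested genes, 20.1% lay above WT in both Dec205 CKO libraries and 21.1% below, so such shifts of single markers are common. The summed level of the 10 B cell markers in Dec205 was 165 and 137 CPM in WT and 649 and 363 CPM in CKO, with none of the markers at 0 in either group. Of the 10, 8 were higher in both CKO libraries than in both WT libraries, and Vpreb3 and Cr2 overlapped. The 14 pDC markers summed to 279 and 247 CPM in WT and 516 and 351 CPM in CKO, with 9 higher, 1 lower and 4 overlapping. A large part of this rise was Ly6d alone, at 19.6 and 20.7 CPM in WT and 148 and 52.6 CPM in CKO. The sum therefore does not stand for each pDC marker. The 8 NK cell markers summed to 79.3 and 98.3 CPM in WT and 164 and 159 CPM in CKO, with 2 higher, 1 lower and 5 overlapping. Most of that sum was Klrk1 alone, at 73.5 and 85.4 CPM in WT and 155 and 155 CPM in CKO. The part of other cells in the Runx2 level was not tested. The summed macrophage, neutrophil and progenitor markers were lower in both CKO libraries. Of their single markers, 3 of 10, 1 of 9 and 3 of 8 were lower, and 0, 2 and 1 were higher. The cDC1 markers summed to 7683 to 7762 CPM in WT and 7508 to 9118 CPM in CKO. This overlap of the sums does not stand for each marker: of the 11, 5 were higher, 3 lower, Cd8a among them, and 3 overlapped.

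Genes that overlap or adjoin Runx2 are given because the library kit does not mark strand. Supt3, which overlaps Runx2 on the opposite strand, was at 31.2 and 38.4 CPM in Dec205 WT and 23.4 and 32.8 CPM in CKO (adjusted p = 0.346). Cdc5l, the next coding gene on the same strand, had an adjusted p of 0.578, and Clic5 was at most 2.2 CPM in any library. The antisense genes Runx2os1, Runx2os2 and Runx2os3 are not rows of the table used here, and reads from them cannot be told apart from Runx2 reads, so the part of overlapping transcription in the Runx2 level was not tested. Of the 50-base stretches of Runx2 transcripts, 5.66% also occur in another gene, most of them in Runx2os1. None of the 4 genes shared a 50-base stretch with another of the 4, so reads of this length would not be exchanged between them.

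**Figure D4:**
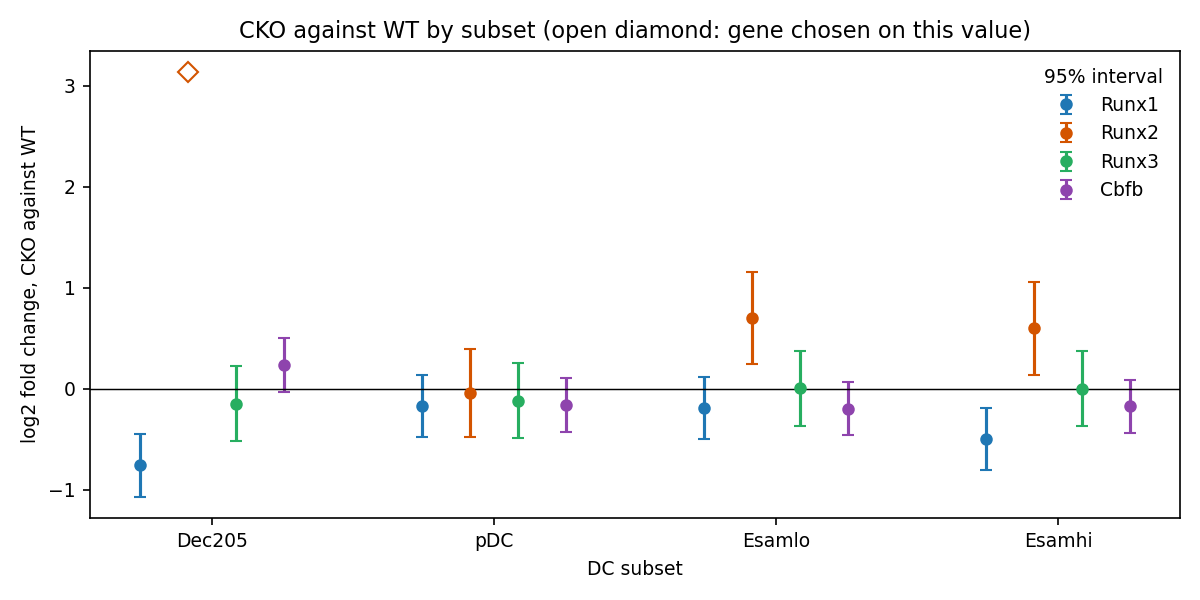
Log2 fold change of CKO against WT (vertical) for the 4 genes in each subset (horizontal); bars are 95% intervals from the edgeR fit, and the open diamond is the untested Dec205 value of Runx2. The interval of Runx1 in Dec205 runs from -1.07 to -0.45, and the Runx2 points of Esamlo and Esamhi lie at 0.70 and 0.60.

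In pDC, where Runx2 was most abundant, none of the 4 genes was called by edgeR or DESeq2, and the lowest unadjusted p in edgeR was 0.220. Runx2 was at 706 and 667 CPM in WT and 634 and 699 CPM in CKO, overlapping groups with a log2 fold change of -0.04 (95% interval -0.48 to 0.40, edgeR adjusted p = 1). Runx1 was at 87.9 and 98.0 CPM in WT and 84.2 and 80.7 CPM in CKO (adjusted p = 0.789). Runx3 (adjusted p = 0.946) and Cbfb (adjusted p = 0.769) had log2 fold changes of -0.12 and -0.16. Of all tested genes 1.47% were higher and 0.377% lower in pDC CKO.

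In the 2 ESAM subsets Runx2 was higher and Runx1 lower in each CKO library than in each WT library, without passing the test. In Esamlo, Runx2 was at 50.0 and 42.3 CPM in WT and 68.7 and 81.4 CPM in CKO (log2 fold change 0.70, SE 0.21, 95% interval 0.24 to 1.16, unadjusted p = 0.00583 from the edgeR fit, adjusted p = 0.288). In Esamhi it was at 40.1 and 43.6 CPM in WT and 60.2 and 66.6 CPM in CKO (log2 fold change 0.60, SE 0.21, 95% interval 0.14 to 1.06, unadjusted p = 0.0145, adjusted p = 0.392). Of all tested genes 9.23% lay above WT in both CKO libraries of both ESAM subsets, as Runx2 did, and 8.35% below, as Runx1 did. Either pattern is thus common. DESeq2 placed Runx2 in Esamlo just under the threshold (adjusted p = 0.0486). Markers of other cells were also higher in both CKO libraries of these subsets. The B cell markers summed to 212 and 293 CPM in Esamlo WT and 779 and 321 CPM in Esamlo CKO, and to 162 and 181 CPM in Esamhi WT and 276 and 212 CPM in Esamhi CKO. The 9 neutrophil markers summed to 81.6 and 79.6 CPM in Esamlo WT and 126 and 124 CPM in Esamlo CKO, and to 112 and 86.5 CPM in Esamhi WT and 178 and 196 CPM in Esamhi CKO, with 7 of the 9 higher in each subset. In Esamhi the summed pDC, monocyte and NK cell markers were higher too. Of their single markers 6 of 14, 3 of 6 and 2 of 8 were higher, and 1, 0 and 1 lower. In Esamlo the progenitor sum was higher through Kit, with 1 of 8 markers higher and 7 overlapping. The shares of all tested genes that moved so in a single ESAM subset were not counted. The summed cDC1, cDC2 and T cell markers were lower in Esamhi CKO, as were the cDC2 and monocyte sums in Esamlo CKO. The part of other cells in the Runx2 values was not tested.

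Runx1 in Esamhi was at 113 and 109 CPM in WT and 76.7 and 80.9 CPM in CKO, with a log2 fold change of -0.49 (SE 0.14, 95% interval -0.80 to -0.19, unadjusted p = 0.00412, edgeR adjusted p = 0.200). It was called by DESeq2 (adjusted p = 0.0419) and when the spread came from the 4 Esamhi libraries alone (adjusted p = 0.0172). In Esamlo it was at 152 and 168 CPM in WT and 146 and 135 CPM in CKO (log2 fold change -0.19, adjusted p = 0.871). Runx1 was therefore lower in both CKO libraries than in both WT libraries in all 4 subsets, a pattern that 0.761% of tested genes showed. The size ran from 1.13-fold in pDC to 1.69-fold in Dec205.

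Neither Runx3 nor Cbfb was called in the ESAM subsets. Runx3 was at 237 and 249 CPM in Esamlo WT and 217 and 271 CPM in Esamlo CKO, and at 313 and 324 CPM in Esamhi WT and 301 and 336 CPM in Esamhi CKO. Its CKO libraries enclosed the WT libraries in both subsets, and the intervals of the log2 fold change were -0.36 to 0.38 and -0.37 to 0.37 (edgeR adjusted p = 1 in both). Cbfb had log2 fold changes of -0.20 in Esamlo (adjusted p = 0.808) and -0.17 in Esamhi (adjusted p = 0.975), with both CKO libraries below both WT libraries in each, as for 8.35% of all tested genes. Across all tested genes 0.457% were higher and 0.0943% lower in Esamlo CKO, and 0.674% higher and 0.203% lower in Esamhi CKO.

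Averaged over pDC, Esamlo and Esamhi, the CKO effect was -0.29 for Runx1 (95% interval -0.46 to -0.11, edgeR adjusted p = 0.0981), 0.42 for Runx2 (0.16 to 0.68, adjusted p = 0.102), -0.04 for Runx3 (adjusted p = 0.991) and -0.18 for Cbfb (adjusted p = 0.286). None of the 4 passed, where 2.95% of all tested genes did. DESeq2 called the averages of Runx1 (adjusted p = 0.0189) and Runx2 (adjusted p = 0.0165). Whether the Dec205 effect differed from this average was tested for the 3 genes not chosen on it. Runx1 was lower by a further 0.47 (95% interval -0.83 to -0.12, adjusted p = 0.160), Runx3 differed by -0.11 (adjusted p = 0.881) and Cbfb by 0.41 (0.11 to 0.72, adjusted p = 0.153). None passed, against 2.93% of all tested genes, so the fall of Runx1 in Dec205 was not shown to differ from that elsewhere. Without Dec205 CKO replicate 2 the Runx1 difference was -0.69 and passed (adjusted p = 0.0330). The summed Runx to Cbfb RPKM ratio in CKO was 4.48 ± 0.862 (SD, n = 2) in pDC, 1.13 ± 0.0884 for Esamlo, and Esamhi had 1.14 ± 0.0134.

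The wider Runx pathway was read from 6 lists with 91 genes, of which 76 passed the filter. In Dec205, 4 of the 76 were higher and 5 lower in CKO, where 3.44% of all tested genes were higher and 3.34% lower. When the spread was estimated from the 4 Dec205 libraries alone, Cd8a and Ccr7 were still called and the other 7 of these 9 genes were not (adjusted p 0.135 to 0.355). The median log2 fold change of the 76 was -0.01, against 0.00 over all tested genes. In pDC and Esamlo 0 were called in either direction by edgeR, with 13 and 6 at an unadjusted p under 0.05 and 4 and 1 called by DESeq2. In Esamhi 0 were higher and 2 lower, with 11 at an unadjusted p under 0.05 in either direction and 3 called by DESeq2.

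Among 14 tested co-repressors, 2 Groucho-related genes went in opposite directions in Dec205. Tle1 rose from 39.2 and 16.6 CPM in WT to 59.9 and 99.7 CPM in CKO (2.87-fold, log2 fold change 1.52, SE 0.34, edgeR adjusted p = 0.0193). Tle3 fell from 90.7 and 112 CPM to 65.2 and 76.8 CPM (1.43-fold, adjusted p = 0.0334). Without WT replicate 2 neither was called (adjusted p = 0.0905 and 0.221). The Tle1 call also ended without CKO replicate 2 (adjusted p = 0.0966) and the Tle3 call without CKO replicate 1 (adjusted p = 0.185). Of 9 tested co-activators and kinases, among them the acetyltransferase Ep300, 0 were called in any subset by edgeR, with 2, 3, 0 and 1 at an unadjusted p under 0.05 in the order Dec205, pDC, Esamlo, Esamhi, and 0, 1, 0 and 0 called by DESeq2.

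Smurf1, a ubiquitin ligase that marks Runx2 for degradation, was the 1 of 7 ligases called. It was at 60.3 and 79.2 CPM in Dec205 WT and fell to 36.3 and 33.6 CPM in CKO (log2 fold change -0.997, SE 0.18, edgeR adjusted p = 0.00701), and the call was lost without WT replicate 2 (adjusted p = 0.0586). In Esamhi it was at 58.4 and 54.4 CPM in WT and 68.6 and 73.0 CPM in CKO (adjusted p = 0.844). Of 20 tested genes of the TGF-beta pathway, which feeds into Runx complexes through Smad proteins, Tgif2 was called. Tgif2, a repressor of Smad-driven transcription, fell in Dec205 from 13.1 and 8.32 CPM to 4.56 and 4.34 CPM (2.39-fold, adjusted p = 0.00446), a call kept with any 1 Dec205 library left out but not with the spread of the 4 Dec205 libraries alone (adjusted p = 0.355).

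**Figure D5:**
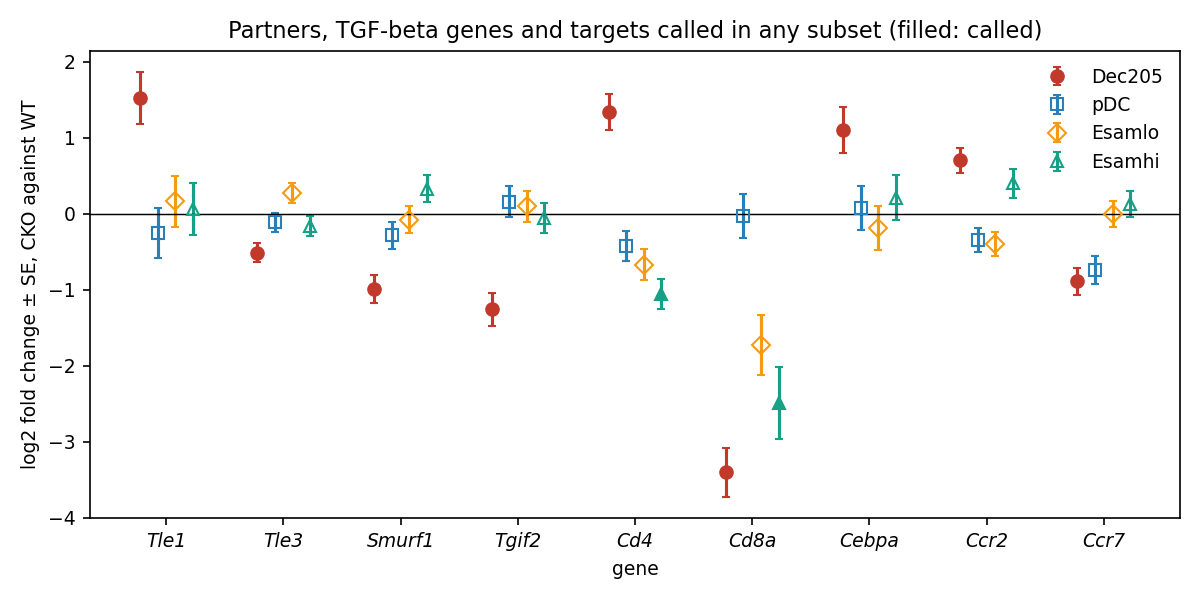
Log2 fold change of CKO against WT ± SE (vertical) of the 9 pathway-list genes called in any subset (horizontal), with 1 symbol for each subset; filled symbols passed an adjusted p under 0.05. Cd8a in Dec205 lies lowest at -3.40, and Cd4 is above 0 in Dec205 but below 0 in the other subsets.

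Of 20 tested Runx targets of blood cells, 3 rose and 2 fell in Dec205, beside 3.44% and 3.34% of all tested genes, and 2 fell in Esamhi, beside 0.203%. The coreceptor genes Cd4 and Cd8a are textbook targets of Runx3 in T cells. Cd8a, a surface molecule of cDC1, fell from 781 and 699 CPM to 69.2 and 70.7 CPM in Dec205 (10.6-fold, adjusted p = 4.25e-05). Cd4, a surface molecule of cDC2, rose there from 6.53 and 12.8 CPM to 24.6 and 24.4 CPM (2.52-fold, log2 fold change 1.33, SE 0.23, adjusted p = 0.00489). Both calls held with any 1 Dec205 library left out, and with the spread of the 4 Dec205 libraries alone Cd4 was not called (adjusted p = 0.238). Cd4 was highest in pDC WT, at 592 and 465 CPM, and the pDC marker sum given above was higher in the same Dec205 CKO libraries. The single pDC markers there ranged from 0.0351% to 12.5% of their pDC WT level, so the sum does not stand for each of them. The part of pDC RNA in the Cd4 value was not tested. Runx3 itself was not called in Dec205 (adjusted p = 0.682).

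In Esamhi, Cd4 fell from 293 and 266 CPM to 126 and 143 CPM (2.08-fold, edgeR adjusted p = 0.0314), and Cd8a from 10.1 and 4.15 CPM to 0.882 and 1.58 CPM (adjusted p = 0.0314). The Cd4 call was lost whichever of the 4 libraries was left out, and that of Cd8a without WT replicate 1 or either CKO replicate (adjusted p 0.125 to 0.331 where a call was lost). Cd8a in Esamhi WT was far below its Dec205 WT level of 781 and 699 CPM. The 11 cDC1 markers summed to 1185 and 944 CPM in Esamhi WT and 789 and 781 CPM in CKO. Of these, 4 were lower, Cd8a among them, and 7 overlapped, while the share of all tested genes lower in Esamhi alone was not counted. Most of the sum was Wdfy4, at 970 and 750 CPM in WT and 611 and 613 CPM in CKO. The part of cDC1 RNA in the Esamhi Cd8a value was not tested. Cd4 in Esamlo was at 125 and 100 CPM in WT and 66.4 and 74.8 CPM in CKO (adjusted p = 0.289). The other targets that rose in Dec205 were Cebpa, a myeloid transcription factor (2.14-fold, adjusted p = 0.0464), and Ccr2, a chemokine receptor of monocytes and pDCs (1.63-fold, adjusted p = 0.0255). The 6 monocyte markers summed to 36.1 and 37.7 CPM in Dec205 WT and 60.2 and 68.3 CPM in CKO. Most of this sum was Ccr2 itself, at 25.9 and 28.6 CPM in WT and 37.4 and 51.4 CPM in CKO. Besides Ccr2 only Ly6c2 was higher, a gene at 1976 and 1952 CPM in pDC WT, and 4 markers overlapped. The sum is therefore no separate measure of monocytes, and the part of other cells in the Ccr2 value was not tested. Ccr7, the receptor that brings mature DCs to lymph nodes, fell 1.85-fold (adjusted p = 0.00997). The Cebpa call ended without WT replicate 1 or CKO replicate 2 (adjusted p = 0.159 and 0.188), Ccr2 without WT replicate 1, WT replicate 2 or CKO replicate 2 (0.0663 to 0.121) and Ccr7 without CKO replicate 1 (0.0509).

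Most of the classical Runx2 targets of bone were too low to test. Only 6 of the 14 passed the filter on low counts, and 0 of these were called in any subset by edgeR or DESeq2, with 1 at an unadjusted p under 0.05 in Dec205 and 1 in Esamhi. Spp1, osteopontin, was at 36.4 and 42.7 CPM in Dec205 WT and 32.3 and 37.5 CPM in CKO (adjusted p = 0.850). Ibsp, Col1a2 and Sp7 had 0 counts in all 4 Dec205 libraries.

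Over the 8 group means of log2 CPM, the genes most like each member by Pearson's r among 10391 expressed genes are given as a description, since the 8 points share the same libraries. For Runx2 they were Gimap9 (r = 0.994), Toe1, Ap1m2, Zfp950 and Mat2b. Gimap9 was at 19.2 CPM in pDC WT, 0.531 CPM in Dec205 WT and 4.27 CPM in Dec205 CKO on average. For Runx3 they were Arap2 (r = 0.998), Rest, Cyp4f37, Cyp4f16 and Trim37, and Arap2 ran from 23.0 CPM in Dec205 WT to 379 CPM in Esamhi WT. For Runx1 they were Ptbp1 (r = 0.973), Dab2, Aph1a, Spast and Tiam2, and for Cbfb they were Plekha1 (r = 0.992), Zcchc11, Sall2, Atp11a and Lrp5. These neighbours depend on the groups used: of the 5 genes named for each member, 0 were among the 5 most alike over the 4 WT means, and over the 4 CKO means 0 were for Runx1, Runx2 and Cbfb and 1 for Runx3.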

How the data were processed

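RNA of DCs sorted from mouse spleen was extracted with the PicoPure kit and amplified with the SMART-seq v4 kit, per the labels' protocols, which uses no molecular identifiers and does not mark strand. The authors deposited raw counts per gene in 1 table. Trimmomatic 0.36, Bowtie2 2.2.9, bcl2fastq and the build mm10 are named in the submitters' processing notes. No source used here names the counting tool or its annotation.

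Genes were filtered with filterByExpr on the 8 groups (13790 kept) and scaled by TMM (factors 0.913 to 1.10). They were tested with the robust, two-sided quasi-likelihood F test of edgeR (version 4.0.16 in R 4.3.3), with 1 coefficient per group over all 16 libraries and 8 residual degrees of freedom. Benjamini-Hochberg adjustment ran over all tested genes, and a call is an adjusted p under 0.05. CPM used TMM-scaled totals and log2 CPM a prior count of 2. RPKM used GENCODE M21 exon lengths of GRCm38, and positions and promoter windows are those of RefSeq for GRCm38.p6. Scripts were tested on simulated data.

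The members and gene lists were chosen with earlier results of these data known. Named genes are the 4 members, listed genes called in a CKO comparison (up to 6 per list and comparison, by size), Etv6 and sex-linked genes as checks, and the 5 genes most like each member. Outside this rule, Ep300, Spp1, Ibsp, Col1a2, Sp7, the markers Siglech, Tcf4, Blnk, Vpreb3 and Cr2, and the Runx2 neighbours Supt3, Cdc5l and Clic5 were named after their values were seen. The same holds for the markers Klrk1, Kit, Ly6c2, Ly6d and Wdfy4. Alternatives were DESeq2 1.42.0 size factors, library size scaling, the DESeq2 test, filters, only the libraries compared, replicate blocks, each library left out, and transcript length.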

Additional observations from a re-analysis of the deposited data

Results flagged for a closer look

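For 5 genes of the Runx-related lists, the CKO effect in Dec205 differed from that in another subset by a test of the difference itself (edgeR quasi-likelihood, adjusted over all tested genes, log2 scale). These comparisons share the Dec205 libraries and are not independent. None of Runx1, Runx3 and Cbfb was among them, and Runx2 was not tested in Dec205.

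Cd4 differed in the same direction from all other subsets, by 1.76 from pDC (adjusted p = 0.0102), by 2.01 from Esamlo (adjusted p = 0.00634) and by 2.39 from Esamhi (adjusted p = 0.00159). Cd8a differed by -3.38 from pDC (adjusted p = 0.00141), but its differences from Esamlo (-1.67, adjusted p = 0.156) and Esamhi (-0.91, adjusted p = 0.574) did not pass. Tgif2 differed by -1.41 from pDC (adjusted p = 0.0290) and by -1.35 from Esamlo (adjusted p = 0.0435), and its difference of -1.20 from Esamhi did not pass (adjusted p = 0.0633). Ccr2 differed by 1.05 from pDC (adjusted p = 0.0334) and by 1.10 from Esamlo (adjusted p = 0.0349), and its difference of 0.30 from Esamhi did not pass (adjusted p = 0.671). Smurf1 differed by -1.33 from Esamhi (adjusted p = 0.0210), but its differences from pDC (-0.71, adjusted p = 0.195) and Esamlo (-0.92, adjusted p = 0.127) did not pass.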

How the results depend on the processing

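With 2 libraries in a group, 1 library can decide a call. Over all alternatives, 587 of 628 member values were counted as kept, 13 gained a call, 7 lost one and 21 changed sign without being called in either setting. A tested value was kept if its direction and side of the threshold stayed. The untested Runx2 values with Dec205 libraries were kept if direction stayed and the shift was within the spread of the libraries. All of these Runx2 values were counted as kept, so the total overstates how often tested values held. Of the values of called list genes, 103 of 132 kept their call and 29 lost it, and 74 of 96 list counts stayed within 1.5 times. The cause was not tested for any of these.

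Scaling by library size moved the median log2 difference of all genes by -0.25 for Dec205 against pDC WT, by -0.14 and -0.10 for Dec205 against Esamlo and Esamhi WT and by 0.11 and 0.14 for pDC against Esamlo and Esamhi WT. It gave Runx1 a call for Dec205 against Esamhi WT (-0.39, adjusted p = 0.0365). With DESeq2 size factors Runx1 in Esamlo against Esamhi WT was 0.51 (edgeR adjusted p = 0.0507). The DESeq2 test called Runx2 in Esamlo (0.71), Runx1 in Esamhi (-0.49) and the averages of Runx1 (-0.29) and Runx2 (0.42). It called 2 list genes higher and 2 lower in pDC, 1 lower in Esamlo and 1 higher in Esamhi. Without the filter 1 list gene was higher in pDC and 1 lower in Esamhi.

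With only the libraries compared, Runx1 lost its Dec205 call (-0.73), and calls were gained by Runx1 (-0.50) and Runx2 (0.60) in Esamhi, by their averages (-0.28 and 0.42) and by Runx3 in Esamlo against Esamhi WT (-0.39). The list counts were then 1 higher and 2 lower in Dec205, 1 higher in pDC and 7 higher in Esamhi. Runx3 effects near 0 changed sign, to -0.016 in Esamlo and -0.035 in Esamhi with library size, and in Esamhi to -0.0019 with a stricter filter and -0.0015 with only the libraries compared.

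Replicate numbers did not mark deviations shared by WT and CKO within a subset. The correlation of same-numbered WT and CKO libraries was 0.017 (Dec205), 0.0077 (pDC), -0.0072 (Esamlo) and -0.069 for the Esamhi libraries. Deviations shared by same-numbered libraries of different subsets were not tested. B cell markers in CKO replicates 1 and 2 summed to 649 and 363 CPM in Dec205 and 264 and 188 CPM in pDC. The sums were 779 and 321 CPM in Esamlo CKO and 276 and 212 CPM in Esamhi CKO. In WT, replicate 1 was higher in Dec205 and pDC and lower in both ESAM subsets. The main tests over several subsets treat all libraries as independent. A replicate block over all subsets left Runx1 in Dec205 at -0.76 (edgeR adjusted p = 0.00597), and Runx3 at -0.0017 in Esamlo and -0.0018 in Esamhi. A block within each subset put Runx3 at -0.0029 and -0.00060, called the average of Runx2 (0.42, adjusted p = 0.0321) and left 1 list gene higher and 0 lower in Esamhi.

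With 1 library left out (a lone library is then assumed to vary like the other groups), the range over the fits was as follows. In Dec205 it was -0.97 to -0.55 for Runx1 and -0.52 to 0.16 for Runx3. For the difference of Dec205 from the average of the other subsets it was -0.69 to -0.27 for Runx1 and -0.48 to 0.20 for Runx3. Runx2 in pDC ranged from -0.11 to 0.019, and Runx3 from -0.17 to 0.16 in Esamlo, -0.082 to 0.078 in Esamhi and -0.096 to 0.014 in their average with pDC. In Dec205 against pDC WT, Runx1 ranged from -0.18 to 0.11 and Runx3 from -0.072 to 0.042. Runx1 in Esamlo against Esamhi WT ranged from 0.45 to 0.60. List counts in Dec205 were 2 to 4 higher and 3 to 10 lower, with 10 lower without WT replicate 1, and 0 to 1 lower in pDC and in Esamhi. Every member had counts in every library, whereas 6 of 14 bone targets passed the filter on low counts. Whether more depth would change a call was not tested.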
